A study of Homo sapiens with 8 samples.

Results

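NR4A1, NR4A2 and NR4A3 are the 3 genes of the NR4A family of orphan nuclear receptors. They were found among the 57820 genes of the count table by joining Ensembl identifiers, without the version, to current symbols. All 3 were in the table and all 3 passed the filter on low counts. The series holds mRNA-seq libraries of the established bladder cancer line J82, which is human, with 4 from side population (SP) and 4 from non-side population (NSP) cells, and each group carries the replicate numbers 1 to 4. Both populations were sorted by flow cytometry from cultures of the same line, in DMEM with 10% FBS. SP cells are those that keep little of the DNA dye Hoechst, NSP cells are the remainder, and the study examined SP cells as a drug-resistant subpopulation. Nothing in the labels says whether the replicates are separate cultures or sorts, so p-values measure only the spread between these libraries, which may be technical.

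NR4A receptors are transcription factors with the DNA-binding and ligand-binding folds of nuclear receptors, but the pocket that would hold a ligand is filled by side chains of the protein itself. Their activity is therefore thought to be set largely by how much of each is made. Their genes are immediate early genes: cAMP, growth factors and stress switch them on within a short time, without new protein synthesis, through factors such as CREB, MEF2 and SRF. The receptors bind DNA as monomers or dimers, and NR4A1 (Nur77) and NR4A2 (Nurr1) can also pair with the retinoid X receptor, which NR4A3 (NOR1) is not known to do.

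Total counts per library were 1431823 to 1697218 in SP and 1489033 to 2073526 in NSP cells, and 9309 genes were tested. Values are given as counts and as CPM, which is the count scaled by the library size after edgeR's TMM normalization. A gene was called where edgeR's quasi-likelihood test gave an adjusted p (Benjamini-Hochberg) below 0.05 together with a change of more than 1.3-fold, and 3.66% of tested genes were called in either direction. Genes of the mitochondrial genome held 3.46% to 7.57% of the counts in SP and 1.65% to 4.01% in NSP libraries. Of the blood cell markers, PTPRC, CD3E, CD3D, MS4A1, HBB and NKG7 were at 0 counts in all libraries, and the summed level of the 11 blood markers, mostly CD14, was 39.0 to 86.1 CPM in SP and 12.1 to 53.2 CPM in NSP libraries. Of the epithelial markers, KRT8 had 3298 ± 485 CPM in SP and 4022 ± 737 CPM in NSP cells (n = 4 each, SD), while UPK3A and TP63 were at 0. In bulk libraries, fewer cells of one kind and less RNA per cell cannot be told apart.

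The NR4A3 gene (ENSG00000119508.13) lies on the plus strand of chr9:102584137-102629173 of GRCh37, the build that hg19 corresponds to, and its exons cover 6314 bp. NR4A3 encodes NOR1, and the gene is also known as the partner of EWSR1 in the fusion of extraskeletal myxoid chondrosarcoma. Since NR4A3 was the member with the large difference between the populations, the 250 bases before its RefSeq start are shown here, at chr9:102583917-102584166 on the plus strand of GRCh37. The letters come from RefSeq promoters of GRCh38.p14 and match this place of GRCh37 exactly and no other place on the chromosome. Capitals mark each TGACG on either strand (CGTCA is its reverse complement), the core of the cAMP response element that CREB and ATF proteins bind.

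NR4A3: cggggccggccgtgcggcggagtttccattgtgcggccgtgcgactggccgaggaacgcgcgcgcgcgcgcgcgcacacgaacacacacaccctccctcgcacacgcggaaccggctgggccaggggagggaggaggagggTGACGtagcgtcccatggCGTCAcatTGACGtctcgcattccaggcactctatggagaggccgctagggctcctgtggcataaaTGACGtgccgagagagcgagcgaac

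The window held 4 such cores, of which 3 lie close together, between 109 and 79 bases before the start, and the last lies 25 to 21 bases before it. The RefSeq start lies inside the first exon of the GENCODE model, which also holds that last core. Of 35116 RefSeq promoters of the same length, 21.2% held at least 1 such core and 0.236% (83 promoters) held at least 4. The nuclear receptor core AGGTCA (in 12.1% of promoters), the forkhead core GTAAACA (2.98%) and the TATA box letters TATAAA (10.7%), searched on both strands, were not in the NR4A3 window. Both RefSeq promoters found for NR4A1, at chr12:52416366-52416615 and chr12:52431249-52431498 on the plus strand, held 0 of these 4 motifs. No window further into the gene was scanned, so these values do not cover every possible start of NR4A1. NR4A2 had no promoter in the table. These matches describe letters in a window, and the data hold no measurement of binding there.

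NR4A3 was higher in SP cells, by 7.26-fold, in counts whose strand of origin was not tested. Its counts were 185, 110, 57 and 66 in SP replicates 1 to 4 and 33, 15, 11 and 9 in NSP replicates 1 to 4. In CPM these were 133.3, 73.7, 30.9 and 48.6 in SP and 17.6, 7.41, 7.02 and 6.22 in NSP libraries. Every SP library was above every NSP library, and replicate 1 was the highest in both populations. The mean was 71.6 ± 44.7 CPM for SP and 9.55 ± 5.36 CPM for NSP (SD over 4 libraries each), so the libraries of one population differed among themselves with a coefficient of variation of 62.5% in SP and 56.1% in NSP. The log2 fold change was 2.86 (standard error 0.42, 95% interval 2.03 to 3.69, adjusted p = 0.00187, edgeR's quasi-likelihood test). Of the 9309 tested genes, 1.63% were called higher in SP cells, and NR4A3 ranked 3 among all by log2 fold change and 24 by the p of the test. Such a separation of the populations, with SP above, was found in 4.78% of tested genes (4.97% with NSP above). For NR4A3 the exact permutation test on log2(CPM + 1), two-sided, gave p = 0.0286, the smallest that 4 against 4 libraries can give.

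Within replicate numbers, NR4A3 was higher in the SP library of all 4 pairs, which was so for 14.9% of tested genes. The ratio of SP to NSP CPM was 7.59, 9.95, 4.40 and 7.81 for replicates 1 to 4, and the difference in log2(CPM + 1) was 2.86, 3.15, 1.99 and 2.78 (mean 2.69, SD 0.50). The levels of replicate 1 were high in both populations, so its ratio lay between those of the others. An exact two-sided sign-flip test of the 4 differences gave p = 0.125, the smallest it can give. When 1 library was left out, the log2 fold change ranged from 2.37 (without SP replicate 1) to 3.34 (without NSP replicate 1), and NR4A3 was called each time.

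**Figure D1:**
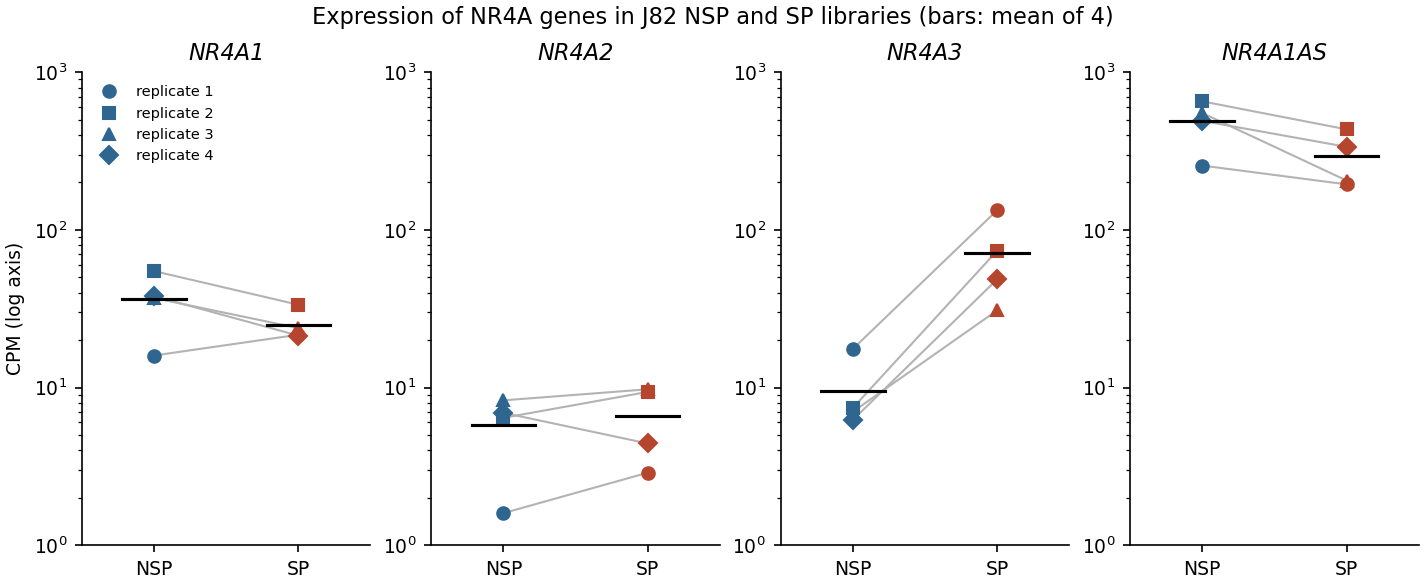
CPM of NR4A1, NR4A2, NR4A3 and NR4A1AS on a log axis, with 1 point per library, a marker shape for each replicate number, grey lines joining libraries of the same number and black bars at the mean of the 4 libraries of a population. NR4A3 is the only gene of the 4 whose SP points (30.9 to 133.3 CPM) all lie above its NSP points (6.22 to 17.6 CPM), and all 4 lines of NR4A1AS slope down from NSP to SP.

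NR4A1 (ENSG00000123358.15), the receptor Nur77, lies on the plus strand of chr12:52416616-52453291, and its exons cover 7295 bp. Its last exon also holds an exon of NR4A1AS (ENSG00000259884.1), a lncRNA on the minus strand of chr12:52452243-52453287 with 2 exons and 915 bp of exon, of which 754 bp lie across that exon of NR4A1. The strand setting of the read counting is not given in the sources used here. Reads from the 2 genes in that stretch therefore cannot be assigned with certainty, and the values of NR4A1 are given beside those of NR4A1AS and beside the sum of both. NR4A2 and NR4A3 have no annotated exon of another gene on the other strand, so such a comparison was not possible for them, and from which strand their counts come was not tested.

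**Figure D2:**
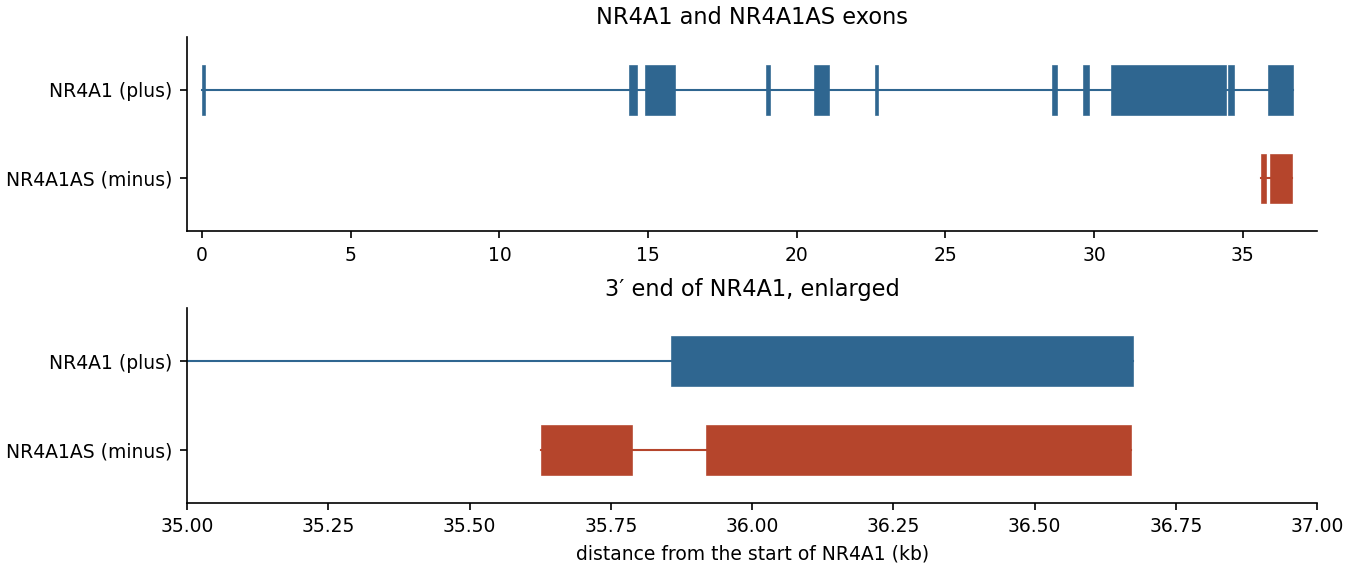
Exons (boxes) of NR4A1 on the plus strand and NR4A1AS on the minus strand, by distance in kb from the start of NR4A1, for the whole gene above and for its 3′ end below. The larger exon of NR4A1AS lies inside the last exon of NR4A1 over 754 bp, and its other exon lies in the last intron.

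NR4A1 did not pass the test. Its counts were 30, 50, 44 and 29 in SP replicates 1 to 4 and 30, 111, 58 and 55 in NSP replicates 1 to 4. The corresponding levels were 21.6, 33.5, 23.8 and 21.4 CPM in SP and 15.96, 54.8, 36.99 and 38.0 CPM in NSP libraries. The groups overlapped, since NSP replicate 1 was below every SP library while the other NSP libraries were above every SP library. Mean levels were 25.1 ± 5.73 CPM for SP and 36.5 ± 15.9 CPM for NSP (SD over 4 libraries each). The log2 fold change was -0.54 (standard error 0.30, 95% interval -1.13 to 0.05, edgeR adjusted p = 0.403). With 1 library left out it was -0.80 to -0.26, and NR4A1 was never called. Within pairs the difference in log2(CPM + 1) was 0.42, -0.69, -0.61 and -0.80 for replicates 1 to 4, thus lower in SP cells in 3 of 4.

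NR4A1AS had far more counts than NR4A1 and was lower in the SP library of all 4 pairs, which was so for 15.1% of tested genes. Its counts were 270, 648, 380 and 457 in SP replicates 1 to 4 and 481, 1324, 865 and 711 in NSP replicates 1 to 4. Its levels were 194.5, 434.3, 205.7 and 336.4 CPM in SP and 255.9, 653.9, 551.7 and 491.6 CPM in NSP libraries. Replicate 1 was the lowest and replicate 2 the highest in both populations, and the groups overlapped. The log2 fold change was -0.74 (standard error 0.28, 95% interval -1.28 to -0.20), with an edgeR adjusted p = 0.178, so NR4A1AS was not called. When the model had a term for the replicate number (the replicate block), the log2 fold change was -0.74 and edgeR's adjusted p = 7.833e-06, and it was called lower, as were 7.0% of tested genes in that fit. It was also called without NSP replicate 1 (log2 fold change -0.96, edgeR adjusted p = 0.0481).

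The sum of both genes gave a log2 fold change of -0.72 (edgeR adjusted p = 0.182), and -0.72 with the replicate block (adjusted p = 1.502e-05 in edgeR), where the sum was called lower. NR4A1 alone was not called with the block (log2 fold change -0.49, edgeR adjusted p = 0.0979). The ratio of NR4A1AS to NR4A1 counts was 8.64 to 16.03 in the 8 libraries, and 68.9 to 127.8 per kb of exon. A lncRNA with more counts per kb than its opposite-strand partner was the usual case in this table, not a feature of NR4A1AS alone. Whether the counts given to NR4A1AS are reads of NR4A1 that were counted on the other strand was not tested. In 595 pairs of opposite-strand genes, 1 a lncRNA and 1 protein-coding, with 50% or more of the lncRNA's exon bases across exons of its partner, the lncRNA had more counts per kb in 88.2%, with a median ratio of 36.8, and the pair of NR4A1 had a ratio of 100.6 over all libraries. In the 377 pairs with both genes tested, the log2 fold changes differed by a median of 0.24, and those of NR4A1 and NR4A1AS differed by 0.20.

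NR4A2 (ENSG00000153234.9), the receptor Nurr1, known for its role in dopamine neurons, had the fewest counts of the members over all libraries. It lies on the minus strand of chr2:157180949-157198860, and its exons cover 4111 bp. The counts were 4, 14, 18 and 6 in SP replicates 1 to 4 and 3, 13, 13 and 10 in NSP replicates 1 to 4, that is 42 and 39 in all. In CPM these were 2.88, 9.38, 9.75 and 4.42 in SP and 1.596, 6.42, 8.29 and 6.91 in NSP libraries. The groups overlapped across most of their ranges, and replicate 1 was the lowest in both. The log2 fold change was 0.25 (standard error 0.46, 95% interval -0.65 to 1.15, edgeR adjusted p = 0.842), and only 1.02% of tested genes had a lower mean CPM. Within pairs the difference in log2(CPM + 1) was 0.58, 0.49, 0.21 and -0.55 for replicates 1 to 4. The sign of the log2 fold change rested on single libraries, since it was -0.02 without SP replicate 3 and -0.08 without NSP replicate 1. A change of NR4A2 anywhere within the 95% interval is compatible with these counts, and the smallest change detectable at this depth was not estimated.

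**Figure D3:**
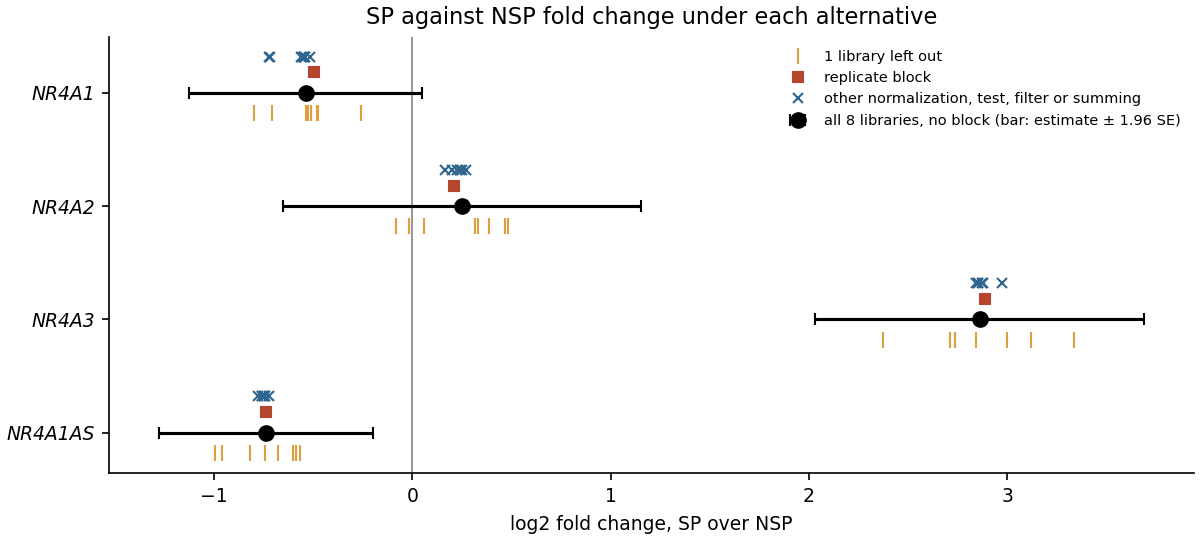
Log2 fold change of SP over NSP for NR4A1, NR4A2, NR4A3 and NR4A1AS with all 8 libraries (black point, with its 95% interval as a bar), with the replicate block (red square), with other normalizations, tests, filters or the summed counts (blue crosses) and with 1 library left out (orange ticks). The values of NR4A3 run from 2.37 to 3.34 and those of NR4A1 and NR4A1AS stay below 0, while NR4A2 falls on both sides of 0.

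The members were also compared with each other by the difference of their log2(CPM + 1) in each library. NR4A3 minus NR4A1 was 1.299 ± 0.92 in SP and -1.82 ± 1.32 in NSP libraries (SD, n = 4 each), a difference of 3.12 between the populations, which did not overlap. The exact two-sided permutation p was 0.0286, the smallest possible, and 0.0857 after Benjamini-Hochberg adjustment over the 3 pairs of members, which a single pair at this smallest p cannot pass. NR4A3 minus NR4A2 differed by 2.51 between the populations (exact permutation p = 0.0571, adjusted 0.0857), and NR4A2 minus NR4A1 by 0.61 (exact permutation p = 0.143, adjusted 0.143). Each of the 3 differences was higher in the SP library in 4 of 4 pairs. NR4A3 minus NR4A1AS, a comparison chosen after seeing the data, differed by 3.43 (exact two-sided permutation p = 0.0286).

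Levels of different genes were compared per kb of exon. In SP cells the mean levels were 11.3 CPM per kb for NR4A3, 3.44 for NR4A1 and 1.61 for NR4A2, and in NSP cells they were 4.996 CPM per kb for NR4A1, 1.51 for NR4A3 and 1.41 for NR4A2. In these counts NR4A3 thus had the highest level in all 4 SP libraries and NR4A1 in 3 of 4 NSP libraries. The means of NR4A3 and NR4A2 in NSP cells lay within the spread of either gene. The strand of origin of the counts was not tested, and the lncRNA had more counts per kb in 88.2% of 595 opposite-strand pairs. The order of the members may therefore not hold for all their RNA. NR4A3 held 85.2%, 62.9%, 46.4% and 65.8% of the family's CPM per kb in SP replicates 1 to 4 and 51.9%, 11.5%, 13.6% and 12.5% in NSP replicates 1 to 4. NSP replicate 1 was above SP replicate 3, and it was the sole overlap. The mean share was 65.1% ± 15.9 in SP and 22.4% ± 19.7 in NSP cells (SD, n = 4 each; exact two-sided permutation p = 0.0571), and it was higher in the SP library in 4 of 4 pairs.

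These shares depended on how NR4A1 was counted. With NR4A1AS added to NR4A1, NR4A3 held 20.5% ± 13.7 of the family in SP and 2.67% ± 2.80 in NSP cells (exact two-sided permutation p = 0.0286), and NR4A1 led in every library of both populations. These summed shares are not like for like, since NR4A2 and NR4A3 have no opposite-strand partner whose counts could be added. With NR4A1 alone, the family total was 16.4 ± 6.62 CPM per kb in SP and 7.92 ± 2.01 in NSP cells (SD, n = 4 each, exact two-sided permutation p = 0.0286). With the sum it was 56.5 ± 16.4 and 74.9 ± 25.1 (exact two-sided permutation p = 0.286), and the populations overlapped. The higher mean total thus lay in SP cells with NR4A1 alone and, without passing the test, in NSP cells with the sum. The sum was divided by the 7295 bp of NR4A1 exon, although most of its counts came from NR4A1AS, with 915 bp.

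**Figure D4:**
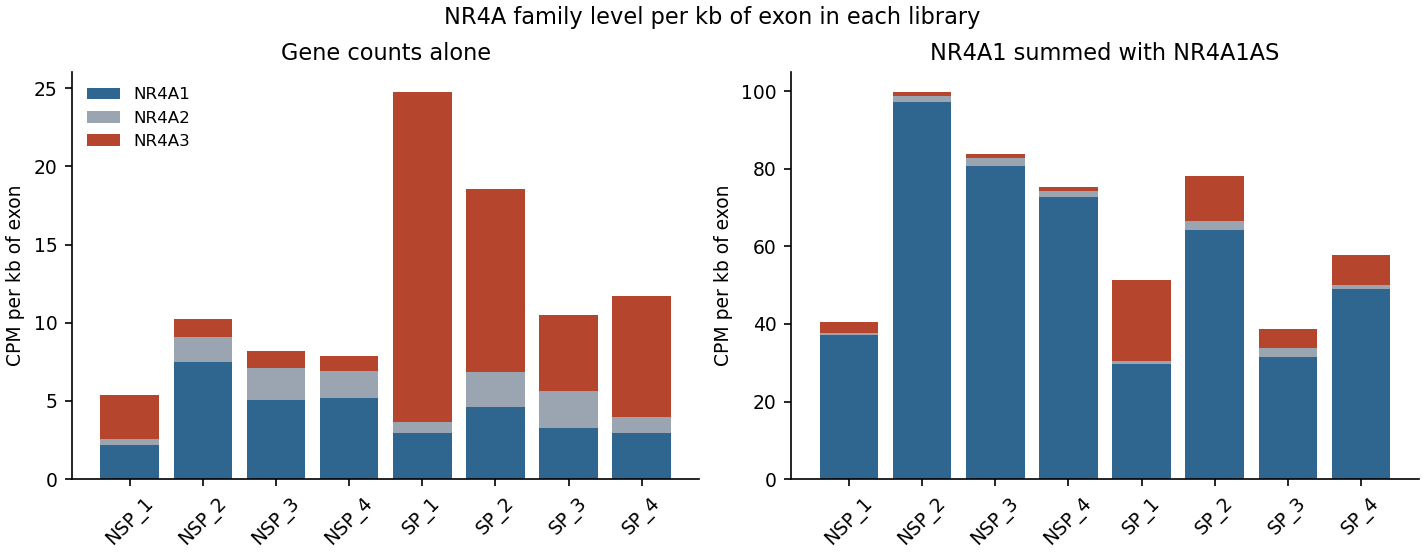
Stacked bars of the CPM per kb of exon of NR4A1, NR4A2 and NR4A3 in each of the 8 libraries, from the counts of each gene alone (left) and with NR4A1AS added to NR4A1 (right, on a larger scale). On the right the sum is divided by the exon length of NR4A1. On the left NR4A3 holds 46.4% to 85.2% of the SP bars, and on the right its mean share of the SP bars is 20.5%.

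Reads of 50 bases could tell the 3 members apart. Of the distinct 50-base stretches in the GENCODE transcripts, 7796 in NR4A1, 4526 in NR4A2 and 6310 in NR4A3, 0 were shared exactly between members. In NR4A2 and NR4A3, 0 were found in any other gene on either strand, whereas NR4A1 shared 705 with NR4A1AS in the reverse direction and 96 (1.23%) with other genes.

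Genes known to act upstream of the family were read from a list of 31 activators (cAMP, CREB, MEF2, SRF and ERK pathway genes). Of these, 21 were tested and 0 were called in edgeR's test, against 3.66% of all tested genes. At an unadjusted edgeR p under 0.05 there were 4, all higher, and DESeq2 called 0 and limma voom 1. The median log2 fold change was -0.03, against 0.01 over all tested genes. PTGER4, a prostaglandin receptor that raises cAMP, had 18.4 ± 8.06 CPM in SP and 8.22 ± 2.08 CPM in NSP cells (log2 fold change 1.15, edgeR adjusted p = 0.0702), and CRTC3, a coactivator of CREB with opposite-strand exons across its own, had 18.8 ± 2.15 and 10.6 ± 1.07 CPM (log2 fold change 0.83, edgeR adjusted p = 0.0696). Both were called higher with the replicate block, as was CRTC1 (log2 fold change 0.68), where 5.89% of tested genes were called higher. CREB1, with a log2 fold change of -0.19, and the kinase CAMK2G, with -0.22, were the lowest of the list. Without SP replicate 1, the count of called activators was 1.

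Of 29 listed protein partners and coregulators, 21 were tested, and 1 was called, where 3.66% of all tested genes were. SMAD3, a transcription factor of TGF-beta signalling with exons across those of another gene on the other strand, was higher in SP cells, at 36.9 ± 12.9 against 15.4 ± 2.22 CPM (log2 fold change 1.25, edgeR adjusted p = 0.014). CTNNB1, beta-catenin, had a log2 fold change of -0.29 and did not pass. TRIB1, a pseudokinase, was at 0.74 and was called higher with the replicate block only (edgeR adjusted p = 0.00474). The median of the 21 was 0.15.

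Of 38 genes reported as NR4A targets in other tissues, 10 had no count in any library and 16 were tested. Of the 16, edgeR called 2 higher and 1 lower, against 1.63% and 2.03% of all tested genes. HIF1A, the hypoxia factor, was higher in SP cells at 225.4 ± 8.44 against 112.7 ± 22.8 CPM (log2 fold change 1.001, edgeR adjusted p = 0.00332). NFKBIA, the inhibitor of NF-kB, was higher at 156.6 ± 34.6 against 75.4 ± 13.95 CPM (log2 fold change 1.06, edgeR adjusted p = 0.00584). CCND1, the G1 cyclin D1, was lower at 116.6 ± 33.8 against 291.6 ± 35.1 CPM (log2 fold change -1.32, edgeR adjusted p = 0.00155). For these 3 genes the populations did not overlap, which held for 9.75% of tested genes. ITGB1, an integrin subunit, was at -0.72 and MYC at 0.62, and they were called lower and higher with the replicate block (ITGB1 also with no filter on low counts). The median of the 16 was -0.02, with 8 above and 8 below 0. Of the 16, 10 have exons of other genes across theirs on the other strand, among them HIF1A, CCND1, ITGB1 and MYC. The same held for 57.4% of all tested genes.

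The lists of cAMP and CREB response genes and of immediate early genes, to which the NR4A genes themselves belong in other cells, had higher medians. The lists share members, among them ATF3, FOS, FOSB, DUSP1 and KLF4, so their medians are not separate observations. Of 30 cAMP and CREB response genes, 16 were tested, 13 of them had a log2 fold change above 0, and the median was 0.36. Of these, edgeR called 3 higher, against 1.63% of all tested genes, and 0 lower, against 2.03%. DESeq2 and limma voom also called 0 lower, and 0 were lower at an unadjusted edgeR p under 0.05. NFIL3, a bZIP repressor, had 30.3 ± 10.95 CPM in SP and 9.29 ± 4.58 CPM in NSP cells (log2 fold change 1.65, edgeR adjusted p = 0.0134, and 0.0503 without SP replicate 2). IRS2, an adaptor of the insulin receptor that also has an opposite-strand exon across its own, had 129.3 ± 16.7 and 61.8 ± 16.8 CPM (log2 fold change 1.06, edgeR adjusted p = 0.00584). ATF3, a stress-induced bZIP factor, had 13.5 ± 5.34 and 4.87 ± 1.86 CPM (log2 fold change 1.45, edgeR adjusted p = 0.0423). The call of ATF3 was lost without SP replicate 1, 2 or 4, without NSP replicate 1, 2 or 4 and with DESeq2, at adjusted p-values of 0.0554 to 0.135. The salt-inducible kinase gene SIK1 (log2 fold change -0.22) and the MYC antagonist MXI1 (-0.30) were the lowest. Without SP replicate 2 the count of called genes of this list was 1.

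Of 49 immediate early genes, 38 were tested, and 29 of these had a log2 fold change above 0, where 51.8% of all tested genes did. The median was 0.41. ATF3, NFKBIA and MCL1, an inhibitor of apoptosis with an opposite-strand exon across its own (126.4 ± 13.9 against 61.2 ± 9.90 CPM, log2 fold change 1.04, edgeR adjusted p = 0.00298), were called higher by edgeR. Over all tested genes, edgeR called 1.63% higher and 2.03% lower. None of the list was called lower by edgeR, DESeq2 or limma voom, and 13 were higher and 2 lower at an unadjusted edgeR p under 0.05. With the replicate block, 5.89% of all tested genes were called higher and 7.0% lower. In that fit 14 of the list were called higher, among them SGK1, DUSP1, KLF6, IER3 and FOSL2, and GADD45A and FOSL1 were called lower. Of the members that did not pass without the block, SGK1, a serum-induced kinase, had the highest log2 fold change (1.14, edgeR adjusted p = 0.0834), and the DNA damage genes GADD45A (-0.68) and GADD45B (-0.59) had the lowest. NR4A3 had a larger log2 fold change than every tested member of both lists. The 12 tested genes of a list of heat shock and handling genes, chosen because cells were stained warm before sorting, had log2 fold changes of -0.29 to 0.26 with a median of -0.01. Of these, 0 were called by edgeR, DESeq2 or limma voom and 0 had an unadjusted edgeR p under 0.05. SP and NSP cells were both stained before the sort, so a response common to both would not appear in these fold changes.

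**Figure D5:**
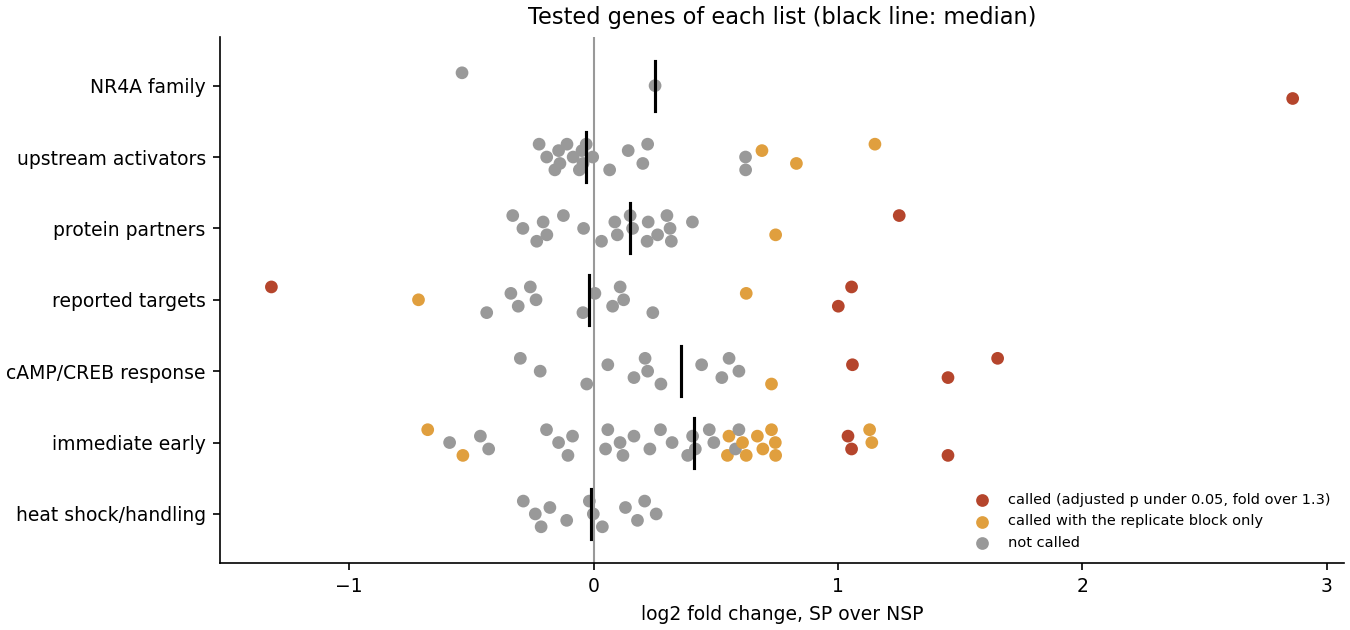
Log2 fold change of SP over NSP for each tested gene of the NR4A family and of 6 gene lists, with red points for called genes, orange points for genes called with the replicate block but not without it, grey points for the others and a black line at the median of each list. The medians of the cAMP and CREB response list (0.36) and of the immediate early list (0.41) lie above 0, those of the upstream activators, reported targets and heat shock genes lie near 0, and NR4A3 (2.86) lies to the right of all listed genes.

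On chromosome 9, the nearest tested genes were SEC61B, ALG2 and TGFBR1, 591.2 to 667.7 kb towards lower coordinates, with log2 fold changes of 0.33, 0.14 and 0.06, and ENSG00000254571, ERP44 and INVS, 48.2 to 232.4 kb towards higher coordinates, with -0.16, 0.44 and 0.39. Of these 6, 0 were called by edgeR, DESeq2 or limma voom, and 0 had an unadjusted edgeR p under 0.05. Over all tested genes, edgeR called 3.66%. Near NR4A2, GPD2, a mitochondrial glycerol phosphate dehydrogenase 92.9 kb away, had the largest value (log2 fold change 0.60, edgeR adjusted p = 0.394), and ARL6IP6, FMNL2 and PKP4, at 2115 to 3675 kb, and AC011308.1, at 153.7 kb, had values of -0.23 to 0.06, with 0 of the 6 nearest tested genes called by any of the 3 tools and 0 at an unadjusted edgeR p under 0.05. Near NR4A1, KRT80, a keratin gene 109.5 kb away, was lower in SP cells at 23.0 ± 4.89 against 51.5 ± 14.2 CPM (log2 fold change -1.16, edgeR adjusted p = 0.0132), while SCN8A, ENSG00000260122, GALNT6, ATG101 and ENSG00000257663, with values of -0.31 to 0.60, were not called.

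Among all tested genes, the profile most like that of NR4A3 over the 8 libraries was found by Pearson correlation of log2(CPM + 1), given as a description since the libraries share depth, sort and population. The 5 highest were DDX49 (r = 0.98), an RNA helicase, ENSG00000253806 (0.96), CDC42EP2 (0.96), an effector of CDC42, GRIA1 (0.96), a glutamate receptor subunit, and MCL1 (0.95). CDC42EP2 and GRIA1 were called higher in SP cells (log2 fold changes 1.57 and 1.962), though CDC42EP2 was not called without SP or NSP replicate 2, nor GRIA1 without SP replicate 1 or 2 or NSP replicate 2, 3 or 4. DDX49 (log2 fold change 0.23) and ENSG00000253806 (0.28), which has an opposite-strand exon across its own, were not called. NR4A1 and NR4A2 had correlations of -0.55 and -0.22 with NR4A3.

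Within populations, from the deviations of each library from its group mean, the 5 highest were ANKRD40 (r = 0.99), DNASE1L1 (0.98), NAB2 (0.98), a corepressor of EGR factors, C1orf43 (0.98) and HOXA10-AS (0.98), again over 8 libraries. Their log2 fold changes were -0.64 to 0.39 and 0 were called by edgeR, DESeq2 or limma voom, with HOXA10-AS alone at an unadjusted edgeR p under 0.05. Of these 5, all but C1orf43 have exons of other genes across theirs on the other strand, as do 57.4% of tested genes. HOXA10-AS was called lower with the replicate block. NR4A2 had a correlation of -0.78 and NR4A1 of -0.47 with NR4A3 on this measure. Replicate 1 had the most NR4A3 and the least NR4A2 of the libraries in each population.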

How the data were processed

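mRNA libraries of FACS-sorted J82 cells were read as single-end 50-bp reads. The authors mapped them with STAR (hg19), made counts per GENCODE 19 gene with featureCounts and deposited these raw counts with no normalization. The strand setting and the treatment of reads matching several genes are not given in the sources used here. Columns were assigned to samples by name.

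The test was that of edgeR 4.0.16 under R 4.3.3 (TMM, filterByExpr with minimum count 10 and minimum total 15, glmQLFit, glmQLFTest), with no covariate. Alternatives used DESeq2 1.42.0, limma 3.58.1 (voom with sample weights), other normalizations, filters and a replicate block, and left out each library or the mitochondrial genes. Standard errors are the log2 fold change over the square root of F, and 95% intervals are normal approximations from them. Exact permutation tests used Python 3.11.15. Symbols, exons and lengths came from GENCODE 44 mapped to GRCh37. Library totals were 1431823 to 2073526 counts, and counting error at low counts limits precision. The paper reports far more raw reads per sample than these totals, so most reads are not in the counts, and the reason was not tested.

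Same-numbered SP and NSP libraries deviated together from their group means (correlations 0.38, 0.203, 0.322 and 0.321 in replicate order), and each was highest with its own number. Same-numbered libraries were therefore treated as pairs in the matched differences and the replicate block, while the main test ignored the replicate number. Replicates of a group differed by more than sampling noise (chi-square per degree of freedom 4.87 to 10.96), so no 2 were counted as 1. The fits were tested on simulated data. The members and gene lists were chosen with earlier results of these data known. Named genes are the NR4A genes and their opposite-strand partner, the 3 nearest tested genes on each side, the called and the 2 highest and 2 lowest members of 5 lists, and the 5 genes most like NR4A3 on each measure. Other names (markers and genes called only with the block) were chosen after their values were seen. Some genes that this rule selects are not reported here.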

Additional observations from a re-analysis of the deposited data

Results flagged for a closer look

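In 106 groups of 4 libraries, the library farthest from the rest was compared with Dixon's 95% critical value for its gap divided by the group's range. Of these groups 6 passed, where chance gives about 5, and NSP replicate 1 was the far library in 3. NR4A3 itself was one of them: NSP replicate 1 had 17.55 CPM and the other NSP libraries had 6.22 to 7.41 CPM (gap over range 0.895). The share of NR4A3 in the family's level per kb was 51.9% in NSP replicate 1 and 11.5% to 13.6% in the other NSP libraries (0.948). SIK1, a salt-inducible kinase gene of the cAMP response list, had 33.5 CPM in NSP replicate 1 and 17.9 to 19.8 CPM in the other NSP libraries (0.879). ATF3 had 7.65 CPM in NSP replicate 3 and 3.72 to 4.15 CPM in the others (0.892), INVS had 2.77 CPM in NSP replicate 4 and 7.65 to 8.40 CPM in the others (0.868), and FMNL2 had 13.3 CPM in SP replicate 4 and 6.70 to 7.58 CPM in the other SP libraries (0.866).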

How the results depend on the processing

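NR4A3 was called higher under every alternative that tested it (log2 fold change 2.37 to 3.34), and it was not tested with at least 10 counts in every library, since NSP replicate 4 had 9. NR4A2 was also untested there. With the replicate block the log2 fold change was 2.89 for NR4A3 (edgeR adjusted p = 1.028e-22) and 0.21 for NR4A2 (edgeR adjusted p = 0.792). With 1 library left out, NR4A2 ranged from -0.0831 to 0.48, and was negative without SP replicate 3 (-0.0154) or NSP replicate 1. NR4A1 summed with NR4A1AS was called with the replicate block (-0.72), and NR4A1AS with the replicate block (-0.74), with no filter (-0.76) and without NSP replicate 1, within a left-out range of -0.99 to -0.57. NR4A3's share of the family differed by 42.7 percentage points, and by 17.8 with NR4A1AS added, where its exact permutation test passed. With the replicate block, the differences between members (3.12, 2.51 and 0.61) had an exact sign-flip p of 0.125 each, the smallest possible. Summing with partners could not be run for NR4A2 and NR4A3, which have none.

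Over all genes 152 were higher and 189 lower, and 548 and 652 with the replicate block, 303 and 381 with no filter, and 69 to 164 and 89 to 181 with 1 library left out (the lowest without NSP replicate 2). Over the 48 other named genes and 756 alternatives, 708 kept direction and side of the threshold, 15 lost and 16 gained a call, and 17 changed sign. The left-out ranges of those genes were -0.11 to 0.19 for AC011308.1 (-0.0097 with limma voom), -0.0419 to 0.30 for ALG2, -0.0481 to 0.16 for ANKRD40, -0.11 to 0.31 for ATG101, -0.43 to 0.0258 for CAMK2G, -0.67 to 0.0259 for ENSG00000260122, -0.21 to 0.33 for FMNL2, -0.0171 to 0.32 for NAB2, -0.41 to 0.17 for SCN8A, -0.65 to 0.0396 for SIK1 and -0.0858 to 0.15 for TGFBR1. The causes were not tested.

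The low counts of NR4A2 limit what its comparison can show, the counts of NR4A1 cannot be separated from those of NR4A1AS without the strand setting, which bears on the counts of every named gene (the lncRNA was above per kb in 525 of 595 opposite-strand pairs), and 4 libraries against 4 allow no exact p below 0.0286.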

Other observations

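Some genes of the epithelial and mesenchymal marker lists also differed between SP and NSP cells, where 1.63% of all tested genes were called higher and 2.03% lower. KRT7, a simple epithelial keratin with opposite-strand exons across its own, was lower in SP cells, at 257.6 ± 87.0 CPM against 659.4 ± 129.0 CPM in NSP cells (SD, n = 4 each), with a log2 fold change of -1.35 (edgeR adjusted p = 0.00342), and it was the 1 called gene of 5 tested epithelial markers. Of 9 tested mesenchymal markers, 6 had a log2 fold change below 0, the median was -0.46, and 1 was called in each direction. FN1, fibronectin, was lower in SP cells (40.1 ± 5.62 against 95.5 ± 11.4 CPM, log2 fold change -1.25, edgeR adjusted p = 0.000863). COL1A2, a chain of type I collagen, was higher (82.7 ± 28.5 against 19.1 ± 14.4 CPM, log2 fold change 2.09, edgeR adjusted p = 0.0085). With the replicate block, VIM (log2 fold change -0.75) and SPARC (-0.62) were also called lower and TWIST1 (0.98) higher. CD14, the 1 tested blood marker, had 67.0 ± 22.7 CPM in SP and 34.2 ± 17.2 CPM in NSP cells and was not called (edgeR adjusted p = 0.135), but was called with the replicate block (log2 fold change 1.01). The 5 endothelial markers found in the table summed to at most 4.02 CPM in any library.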
